A study of Homo sapiens with 24 samples.

Results

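The 10 genes described here act in the breakdown of extracellular matrix at the cell surface: the matrix metalloproteinase (MMP) genes MMP1, MMP2, MMP3, MMP10 and MMP14, the inhibitor genes TIMP1, TIMP2 and TIMP3, and the urokinase gene PLAU with its receptor gene PLAUR. Their probes were found through the RefSeq transcript that names each probe of the array, which gave 11 probes out of 58118 and 10 gene symbols out of 24817. The match itself used no intensity. The 10 genes, however, had been chosen by their log2 changes at G-1 1 µM in an earlier reading of these arrays, so their changes at that dose, and the adjusted p-values printed with them, are a description and not independent evidence. Other comparisons that use the same DMSO arrays are not independent of that choice either. PLAU had 2 probes and each other gene had 1. Of the 10 genes, 9 were tested, since MMP10 was not well above background on any of the 24 arrays.

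U251 is an established human glioblastoma (GBM) line, and G-1 is an agonist of the G protein-coupled estrogen receptor, GPER. All 24 cultures were first deprived of steroid hormones in charcoal-stripped medium and then received the vehicle DMSO (0.1% in the labels), G-1 at the IC50 dose or G-1 at 1 µM, for 24 h or 72 h, with 4 biological replicates in each of the 6 groups. RNA of each culture was read on 1 one-colour Agilent array. The titles gave the duration, because another entry of the labels gives 72 h for the 4 arrays titled G-1 IC50 24 h, and 24 h for those titled G-1 1 µM 72 h. The data came from 1 cell line grown without stroma, and the study's methods give a lower DMSO concentration than the labels do.

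MMPs are zinc proteases that are made as inactive proenzymes and cut collagens, proteoglycans and other matrix proteins, and TIMPs bind their active sites. Urokinase, held on the cell by its receptor, turns plasminogen into plasmin, which cuts fibrin and activates several pro-MMPs. In glioblastoma both systems are known for their part in the invasion of brain tissue. MMP10, MMP1 and MMP3 lie in that order in the MMP gene cluster of chromosome 11 (GRCh38.p14).

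Promoter sequence was matched in RefSeq (GRCh38.p14) for 6 of the 10 genes, in 7 windows. No window was at hand for MMP1, MMP2, MMP3 and TIMP2, which were not searched. AP-1 is a dimer of FOS and JUN proteins known to act on promoters of MMP and urokinase genes, and its motif TGANTCA, which reads the same on both strands, was searched in the 250 bases before each gene's start. It was matched in 2 of the 6 genes, PLAUR and MMP10, against 6.57% of the 35116 promoter windows of the same length. Other motifs were searched on both strands too. The ETS factor motif AGGAAG was matched in PLAU, PLAUR and TIMP1 (28.7% of windows) and TATAAA in MMP10 (10.7%). The GC box GGGCGG was matched in MMP14, PLAU, TIMP1 and TIMP3 (42.6%) and the E-box CACGTG in none (6.34%). The windows of PLAUR, MMP10 and, with no AP-1 match, TIMP3 are printed 5′ to 3′ to show where the AP-1 motif lies, with that motif in capitals. The PLAUR window is chr19:43670170-43670419 on the minus strand with the motif at −186 from the start, the MMP10 window is chr11:102780629-102780878 on the minus strand with the motif at −67, and the TIMP3 window is chr22:32801455-32801704 on the plus strand. A match describes these letters and shows neither binding nor a cause.
PLAUR: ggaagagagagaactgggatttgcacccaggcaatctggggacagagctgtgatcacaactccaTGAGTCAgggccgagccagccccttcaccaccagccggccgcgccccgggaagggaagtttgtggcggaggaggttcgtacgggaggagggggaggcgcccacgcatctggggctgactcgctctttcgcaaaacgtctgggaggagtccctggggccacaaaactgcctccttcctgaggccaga
MMP10: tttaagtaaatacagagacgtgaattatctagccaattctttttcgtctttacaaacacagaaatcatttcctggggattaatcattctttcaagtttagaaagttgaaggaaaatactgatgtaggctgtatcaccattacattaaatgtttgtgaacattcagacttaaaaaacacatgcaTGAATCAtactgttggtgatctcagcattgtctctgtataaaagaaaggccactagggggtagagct
TIMP3: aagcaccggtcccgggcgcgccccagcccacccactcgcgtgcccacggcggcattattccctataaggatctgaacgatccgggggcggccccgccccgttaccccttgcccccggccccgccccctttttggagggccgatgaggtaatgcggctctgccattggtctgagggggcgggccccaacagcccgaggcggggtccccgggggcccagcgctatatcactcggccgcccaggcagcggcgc

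Every level is the log2 of a probe's intensity minus the 75th percentile of log2 intensities on the same array, so a value of 0 means a probe as bright as that percentile, and levels are set side by side only within a probe. Between 38.0% and 40.7% of the spots were well above background on the G-1 1 µM arrays, and between 41.1% and 44.5% on the others. The lowest signal counted as well above background lay between −3.06 and −2.48 on the G-1 1 µM arrays and between −3.71 and −3.11 on the others. Counts of arrays above background in G-1 1 µM thus met a higher threshold. Arrays of 1 group correlated at 0.990 to 0.996 over the tested probes. All 8 arrays of G-1 1 µM shared 1 slide and 1 scan session, while DMSO and G-1 IC50 shared 2 other slides and another session, so that at a given duration G-1 1 µM cannot be told apart from its slide. The median of the 30396 probes that were above background on no array lay between −5.46 and −5.26 in the 4 groups of DMSO and G-1 IC50, and in G-1 1 µM at −4.78 after 24 h and −4.87 after 72 h. A difference between durations within G-1 1 µM is free of any constant offset between slides. A test of whether its change from DMSO differed between durations (an interaction) is free of a constant offset of the G-1 1 µM slide. The interaction is not free of an offset between the 2 DMSO slides, which held 3 and 1 arrays of DMSO 24 h and 2 each of DMSO 72 h. Of 10 astroglial and glioma markers 9 were above background on every array and OLIG2 on none, while the leucocyte genes PTPRC, ITGAM and AIF1, the endothelial PECAM1, the epithelial EPCAM and CDH1 and the fibroblast DCN were above background on no array. Other markers of these lists had signal: CD14, KRT8 and COL1A2 were above background on all 24 arrays, VWF on 23, PDGFRB on 22, CDH5 on 16 and COL1A1 on 1. Of the 6 tested, CD14 was higher (1.23) in G-1 1 µM 72 h than in DMSO and VWF (−1.70), KRT8 (−0.44), COL1A2 (−0.76) and PDGFRB (−0.98) were lower, all past the limma test. At G-1 1 µM 72 h, 7 of the 9 tested astroglial and glioma markers were lower and 1 was higher than in DMSO, against 30.9% and 35.3% of all genes, and the mean level of GFAP, the intermediate filament of astrocytes, was 4.02 against 6.73. The part of these marker changes in the results below was not tested. In bulk RNA, a smaller share of cells that use a gene and less of its RNA per cell cannot be told apart.

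Most changes among the 10 genes were found after 72 h at G-1 1 µM. Compared with DMSO 72 h, 4 of the 9 tested genes were higher (MMP1, MMP2, MMP3 and PLAUR) and 3 were lower (MMP14, TIMP2 and TIMP3) at adjusted p under 0.05, while TIMP1 and PLAU did not pass. Adjusted p-values are from limma, adjusted by Benjamini-Hochberg over all 22970 tested probes. Over the 14235 genes tested, 66.2% passed in that comparison, 35.3% higher and 30.9% lower, so that 7 of 9 is not far from the background. Groups did not overlap for 5 of the 9 (MMP1, MMP3, MMP14, TIMP2 and PLAUR), against 58.7% of all genes. With |FC| above 2 as well, 3 of 9 passed (MMP1, MMP3 and PLAUR, all higher) against 12.3% of all genes. MMP1 was tested only because of its signal in G-1 1 µM 72 h, so its place in these counts was built in. The median log2 change of the 9 genes was 0.13, against 0.03 over all genes, and it stayed there with MMP1 at its lower bound. After 24 h of the same dose only TIMP1 and PLAUR passed, both higher, where 30.6% of all genes did and 20.0% were higher, and none reached |FC| above 2, against 1.69%. Groups did not overlap there for PLAUR, PLAU and TIMP3, 3 of 9, against 30.3%. The split of 2 higher and 0 lower at 24 h turned on the scaling: it was 1 and 1 with quantile normalization (PLAU lower), 1 and 0 with the 50th percentile, and 2 and 2 with normexp background correction (TIMP3 higher, PLAU and TIMP2 lower), and PLAUR was higher in each.

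**Figure D1:**
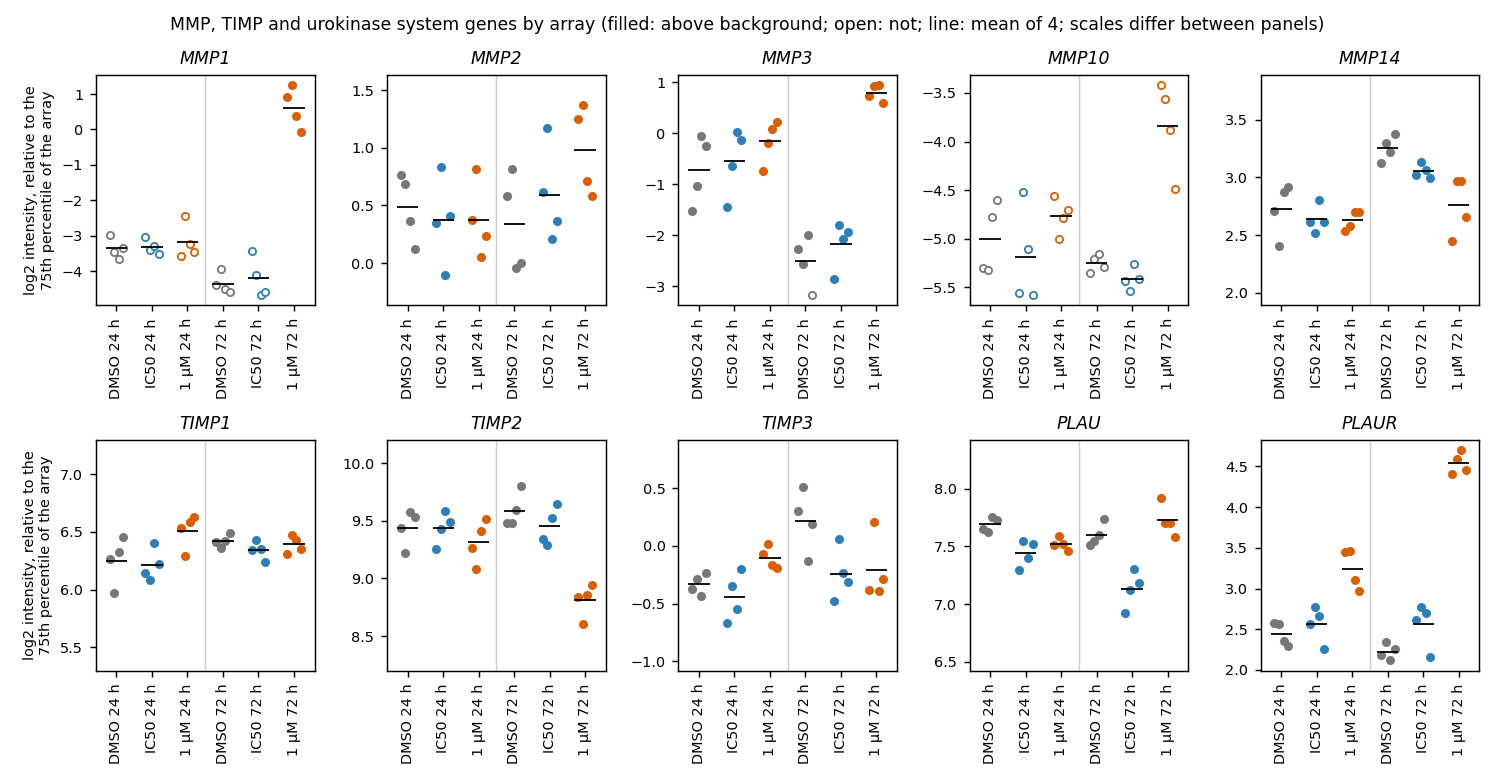
Levels of the 10 genes on the 24 arrays (log2 intensity minus the array's 75th percentile), by group, with filled points for arrays where the probe was well above background, open points where it was not, and a line at the mean of 4. PLAUR, MMP3 and MMP1 stood apart at G-1 1 µM 72 h, TIMP2 lay lowest there, and every MMP10 point is open.

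PLAUR, which encodes the receptor that gathers urokinase on the cell, rose at the higher dose after 24 h and further after 72 h. At 24 h its levels in replicates 1 to 4 were 2.58, 2.56, 2.35 and 2.29 in DMSO, 2.56, 2.77, 2.66 and 2.26 in G-1 IC50, and 3.44, 3.46, 3.10 and 2.97 in G-1 1 µM. At 72 h they were 2.18, 2.34, 2.12 and 2.26 in DMSO, 2.61, 2.77, 2.70 and 2.16 in G-1 IC50, and 4.41, 4.60, 4.70 and 4.46 in G-1 1 µM. Each array of G-1 1 µM was thus above each array of DMSO and G-1 IC50 at its duration, and 72 h lay above 24 h without overlap. In G-1 IC50 72 h, 3 of 4 arrays were above every DMSO array and the fourth was below 3 of the 4.

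PLAUR rose by 0.80 ± 0.136 log2 (SE, 4 against 4 arrays, 1.74-fold, adjusted p = 0.00031) at G-1 1 µM 24 h and by 2.32 ± 0.136 (4.98-fold, adjusted p = 2.3e-11) at 72 h. For G-1 IC50 the changes of 0.12 at 24 h (adjusted p = 0.997) and 0.34 at 72 h (adjusted p = 0.434) did not pass. Against G-1 IC50, G-1 1 µM was higher by 0.68 at 24 h (adjusted p = 0.00126) and by 1.98 at 72 h (adjusted p = 2.5e-10). The 72 h change of PLAUR exceeded its 24 h change by 1.52 ± 0.192 (interaction, adjusted p = 7.2e-06). On the slide that all G-1 1 µM arrays shared, the 72 h mean was 1.30 above the 24 h mean, with the smallest p that an exact permutation test of 4 against 4 allows (two-sided, p = 0.0286). Leaving out any 1 array kept the change at 72 h between 2.26 and 2.36.

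PLAU, the urokinase gene, passed at adjusted p under 0.05 against DMSO at G-1 IC50 72 h, and by its brighter probe in no other treated group. Its brighter probe gave 7.65, 7.63, 7.76 and 7.73 in DMSO 24 h, 7.30, 7.55, 7.40 and 7.52 in G-1 IC50 24 h, and 7.51, 7.59, 7.52 and 7.46 in G-1 1 µM 24 h. The 72 h levels were 7.51, 7.55, 7.60 and 7.73 in DMSO, 6.93, 7.12, 7.30 and 7.18 in G-1 IC50, and 7.92, 7.70, 7.71 and 7.58 in G-1 1 µM. All 4 arrays of G-1 IC50 lay below all 4 of DMSO at both durations, the 4 of G-1 1 µM lay below DMSO at 24 h only, and at 72 h G-1 1 µM overlapped DMSO and lay above G-1 IC50.

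At G-1 IC50 72 h PLAU fell by 0.47 ± 0.0824 log2 (1.38-fold, adjusted p = 0.00499), and it was the only one of the 9 genes to pass there, where 0.885% of all genes did and 0.457% were lower. Groups did not overlap for 1 of 9 genes, PLAU, against 7.54% of all genes. Both slides that held the 2 groups gave the same direction, −0.52 on the first (1 array against 2) and −0.42 on the second (3 against 2), and with slide as a block the change was −0.45 (adjusted p = 0.00786). The call was lost with scaling to the 50th percentile, at −0.38 (adjusted p = 0.291), and with a fit of these 8 arrays alone (adjusted p = 0.101). PLAU's second probe, on transcript NM_001145031, gave −0.45 (adjusted p = 0.0556).

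At 24 h the lower PLAU level in G-1 IC50, −0.25, did not pass (adjusted p = 0.596), nor did −0.17 in G-1 1 µM (adjusted p = 0.12). At G-1 1 µM 72 h the 2 probes differed in call: the brighter gave 0.13 (adjusted p = 0.181) and the second 0.26 (adjusted p = 0.0363). Both were higher in G-1 1 µM than in G-1 IC50 at 72 h, by 0.59 (adjusted p = 3.2e-06) and 0.71 (adjusted p = 8.4e-06), groups that lay on different slides. None of the 9 genes passed at G-1 IC50 24 h, where 0.246% of all genes did. With limma and no adjustment 1 of the 9 had p under 0.05 there, and the methods' t-test with |FC| above 2 called 0. PLAU was the 1 gene of 9 whose groups did not overlap there, against 2.75% of all genes.

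**Figure D2:**
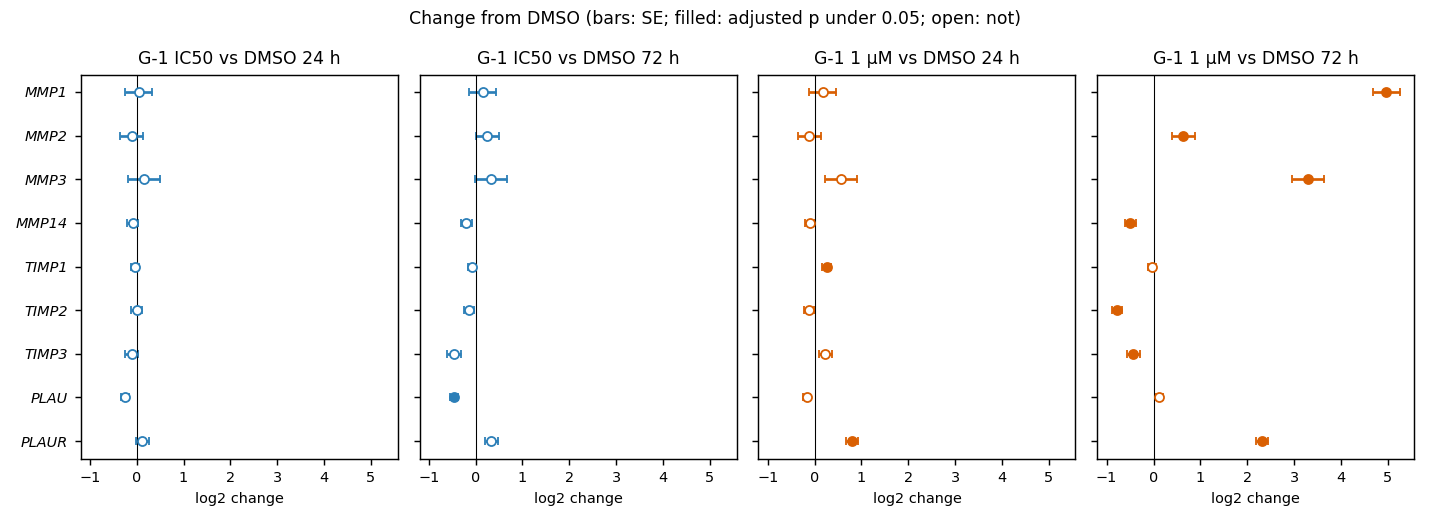
Log2 change from DMSO of the 9 tested genes for each dose and duration, with SE bars, filled where adjusted p was under 0.05. Filled points number 0 at G-1 IC50 24 h, 1 at G-1 IC50 72 h, 2 at G-1 1 µM 24 h and 7 at G-1 1 µM 72 h. The fitted MMP1 value at 72 h, 4.97, rests on DMSO arrays where MMP1 was not above background.

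MMP1, the interstitial collagenase that opens fibrillar collagen, was above background only in G-1 1 µM 72 h. Its levels there were 0.91, 1.25, 0.37 and −0.08. In the 20 arrays of the other groups the probe was not well above background, with measured values from −3.66 to −2.45 at 24 h and from −4.67 to −3.44 at 72 h. MMP1 passed the filter on dim probes through this 1 group, so that a difference was built into its being tested.

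The mean of G-1 1 µM 72 h was 0.61. MMP1 was at least 14.8-fold higher there than in DMSO 72 h (measured mean −4.36) and at least 16.1-fold higher than in G-1 IC50 72 h (measured mean −4.21). These bounds set each dim array at the lowest signal that any probe well above background had on it, or at MMP1's own value where that was higher. On the slide shared by the G-1 1 µM arrays, 72 h was at least 9.29-fold above 24 h, without overlap. No p-value is given with these folds, since MMP1 was tested only through G-1 1 µM 72 h and its fit used readings below background. No fold is given between the other groups, since MMP1 was below background in all of them. With normexp background correction and an offset of 50, the fitted change from DMSO 72 h was 1.88 in place of 4.97. That is under the bound of 3.88 log2 (14.8-fold), so the bounds hold only for the background correction used here.

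MMP3, or stromelysin-1, which cuts proteoglycans and activates other pro-MMPs, was above background on 23 arrays. Its levels at 24 h were −1.51, −1.03, −0.05 and −0.25 in DMSO, −1.44, −0.64, 0.02 and −0.12 in G-1 IC50, and −0.74, −0.18, 0.09 and 0.23 in G-1 1 µM. The 72 h levels were −2.26, −2.56, −1.99 and −3.17 in DMSO, −2.85, −1.79, −2.08 and −1.94 in G-1 IC50, and 0.73, 0.93, 0.95 and 0.59 in G-1 1 µM, and the array that missed the background threshold was replicate 4 of DMSO 72 h. The 3 groups overlapped widely at 24 h, and at 72 h DMSO and G-1 IC50 lay below all 24 h arrays while G-1 1 µM lay above them.

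MMP3 rose by 3.29 ± 0.341 log2 (9.81-fold, adjusted p = 5.7e-08) at G-1 1 µM 72 h, and without any 1 array the change stayed between 3.07 and 3.46. With normexp background correction and an offset of 50, the change was 1.74 (adjusted p = 2.4e-09). It was 0.56 at 24 h (adjusted p = 0.222), and 0.17 and 0.33 at G-1 IC50 24 h and 72 h (adjusted p = 0.997 and 0.841). In DMSO itself MMP3 fell by 1.78 from 24 h to 72 h (3.45-fold, adjusted p = 0.00703), by 2.26 within the first slide and by 1.10 within the second, a call lost in a fit of the 8 DMSO arrays alone (adjusted p = 0.0804). The 72 h change of G-1 1 µM exceeded its 24 h change by 2.73 ± 0.482 (interaction, adjusted p = 0.00024). Within G-1 1 µM the level went the other way from DMSO, 0.95 higher at 72 h than at 24 h, whereas in G-1 IC50 it was 1.62 lower (exact permutation tests, two-sided, p = 0.0286 each).

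MMP10, or stromelysin-2, was not well above background on any array and was not tested, so its values are given only as read. They ran from −5.58 to −4.52 over the 20 arrays of the other groups and were −3.42, −3.57, −3.88 and −4.49 in G-1 1 µM 72 h. The 4 arrays of G-1 1 µM 72 h held the highest readings, above all 20 others, in a group where the median of the probes never above background was itself −4.87.

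MMP2, the gelatinase A that cuts type IV collagen, and MMP14, the membrane-bound protease that activates pro-MMP2 together with TIMP2, went opposite ways at G-1 1 µM 72 h. MMP2 levels at 72 h were 0.59, 0.82, −0.04 and 0.01 in DMSO, 0.62, 1.17, 0.21 and 0.37 in G-1 IC50, and 1.25, 1.37, 0.71 and 0.58 in G-1 1 µM. At 24 h they ran from 0.13 to 0.76 in DMSO, from −0.10 to 0.83 in G-1 IC50 and from 0.06 to 0.82 in G-1 1 µM. The groups overlapped in every comparison, including that of G-1 1 µM 72 h with DMSO.

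The MMP2 rise at G-1 1 µM 72 h was 0.64 ± 0.251 (1.56-fold, adjusted p = 0.0313) and was lost without DMSO 72 h replicate 3 (0.51, adjusted p = 0.105) or 4 (0.53, adjusted p = 0.0968), and without G-1 1 µM 72 h replicate 1 (0.55, adjusted p = 0.0881) or 2 (0.51, adjusted p = 0.103). It was also lost with the 50th percentile (0.56, adjusted p = 0.0768) and with no filter on dim probes (adjusted p = 0.0554). The exact permutation test of its 8 arrays gave p = 0.1429 (two-sided). In the other comparisons with DMSO its change lay between −0.11 and 0.25 and did not pass.

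MMP14 levels were 2.71, 2.41, 2.87 and 2.92 in DMSO 24 h, and ran from 2.52 to 2.81 in G-1 IC50 24 h and from 2.54 to 2.70 in G-1 1 µM 24 h. At 72 h they were 3.12, 3.30, 3.22 and 3.38 in DMSO, 3.02, 3.14, 3.07 and 3.00 in G-1 IC50, and 2.45, 2.97, 2.97 and 2.66 in G-1 1 µM. DMSO 72 h was above DMSO 24 h without overlap, and G-1 1 µM 72 h was below both other 72 h groups.

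MMP14 fell by 0.49 ± 0.113 (1.41-fold, adjusted p = 0.00071) at G-1 1 µM 72 h, and was −0.20 at G-1 IC50 72 h (adjusted p = 0.664). The difference of −0.29 between G-1 1 µM and G-1 IC50 at 72 h passed (adjusted p = 0.0275), but not without replicates 1 or 4 of the former or 2 or 3 of the latter, when it ran from −0.29 to −0.19 (adjusted p from 0.0504 to 0.132). In DMSO, MMP14 rose by 0.53 from 24 h to 72 h (adjusted p = 0.0138), and by 0.51 and 0.76 within the 2 slides. That call was lost without DMSO 24 h replicate 2 (0.42, adjusted p = 0.0518). The 2 durations' changes at G-1 1 µM differed by −0.40, which did not pass (interaction, adjusted p = 0.0641).

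Of the inhibitors, TIMP2, which both inhibits MMPs and docks pro-MMP2 on MMP14, fell furthest at G-1 1 µM 72 h. Its levels at 24 h were 9.44, 9.22, 9.58 and 9.53 in DMSO, 9.25, 9.43, 9.58 and 9.49 in G-1 IC50, and 9.26, 9.08, 9.41 and 9.51 in G-1 1 µM. At 72 h they were 9.48, 9.48, 9.59 and 9.80 in DMSO, 9.34, 9.29, 9.52 and 9.65 in G-1 IC50, and 8.84, 8.60, 8.86 and 8.94 in G-1 1 µM. The 5 other groups overlapped one another, and G-1 1 µM 72 h lay below all of their arrays.

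TIMP2 fell by 0.78 ± 0.112 (1.72-fold, adjusted p = 4.4e-06) at G-1 1 µM 72 h against −0.12 at 24 h (adjusted p = 0.424), a difference of −0.66 ± 0.158 (interaction, adjusted p = 0.00354). Against G-1 IC50 72 h it was lower in G-1 1 µM (change −0.64, adjusted p = 4.8e-05), and on the G-1 1 µM slide the 72 h mean was below the 24 h mean (change −0.51; exact permutation test, two-sided, p = 0.0286). G-1 IC50 gave 0.00 at 24 h and −0.14 at 72 h (adjusted p = 1.0 and 0.798).

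TIMP3, an inhibitor that stays bound to the matrix and also blocks ADAM proteases, gave −0.37, −0.29, −0.44 and −0.23 in DMSO 24 h, −0.67, −0.35, −0.55 and −0.20 in G-1 IC50 24 h, and −0.07, 0.02, −0.16 and −0.19 in G-1 1 µM 24 h. The 72 h levels were 0.30, 0.51, −0.13 and 0.19 in DMSO, −0.47, 0.06, −0.24 and −0.31 in G-1 IC50, and −0.38, 0.21, −0.39 and −0.29 in G-1 1 µM. DMSO 72 h was the highest group on average, above all of DMSO 24 h, and both G-1 doses overlapped it through 1 array each.

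At G-1 1 µM 72 h TIMP3 fell by 0.43 ± 0.143 (1.35-fold, adjusted p = 0.0125), a call lost without DMSO 72 h replicate 2 (−0.33, adjusted p = 0.0563) and with a fit of the 8 arrays alone (adjusted p = 0.0548). The G-1 IC50 72 h change was as large, −0.46, and did not pass (adjusted p = 0.208), and the 2 doses differed by 0.03 (adjusted p = 0.863). At 24 h the G-1 1 µM arrays lay above all DMSO arrays, but the change of 0.23 did not pass (adjusted p = 0.234). The G-1 1 µM change at 72 h was below that at 24 h by −0.66 ± 0.202 (interaction, adjusted p = 0.017), a call lost with the 50th percentile (adjusted p = 0.0514). In DMSO, TIMP3 rose by 0.55 from 24 h to 72 h (adjusted p = 0.0409), by 0.70 and 0.37 within the 2 slides, but the call was lost without any 1 of 8 arrays (DMSO 24 h replicates 1 to 4, DMSO 72 h replicates 1, 2 and 4, and G-1 1 µM 24 h replicate 3), with changes then of 0.45 to 0.58.

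TIMP1, a secreted inhibitor of most MMPs, ran from 5.97 to 6.45 in DMSO 24 h, from 6.08 to 6.40 in G-1 IC50 24 h and from 6.29 to 6.63 in G-1 1 µM 24 h. The 72 h levels ran from 6.36 to 6.49 in DMSO, from 6.24 to 6.43 in G-1 IC50 and from 6.31 to 6.47 in G-1 1 µM. At 24 h 3 of the 4 arrays of G-1 1 µM were above every DMSO array, and at 72 h all groups overlapped. TIMP1 rose by 0.26 ± 0.0920 (1.20-fold, adjusted p = 0.0394) at G-1 1 µM 24 h, a call lost without DMSO 24 h replicate 1 or 2 or G-1 1 µM 24 h replicate 1, 3 or 4 (0.16 to 0.26, adjusted p from 0.0646 to 0.162). It was also lost with quantile normalization, the 50th percentile or normexp background correction (0.18 to 0.20, adjusted p from 0.0789 to 0.217). The change at 72 h was −0.03 (adjusted p = 0.801). Against G-1 IC50 24 h, TIMP1 was higher by 0.30 in G-1 1 µM (adjusted p = 0.0216), a call lost without replicate 3 or 4 of G-1 1 µM or replicate 1 or 2 of G-1 IC50 (0.25 to 0.28, adjusted p from 0.0571 to 0.0677).

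In DMSO, 3 of the 9 genes differed between durations: MMP14 and TIMP3 were higher and MMP3 was lower at 72 h, where 3.29% of all genes passed. The genes were chosen by changes at G-1 1 µM, which are measured against these DMSO arrays, so this count is not independent evidence. All 3 calls were lost in a fit of the DMSO arrays alone (limma, adjusted p = 0.0804 for MMP3, 0.105 for MMP14 and 0.111 for TIMP3). With the 50th percentile only MMP3 passed. Groups of DMSO did not overlap for MMP1, MMP3, MMP14 and TIMP3, 4 of 9, against 12.9% of all genes. MMP1 was above background on no DMSO array, so its part in this count rests on readings below background. For 5 of 9 genes the G-1 1 µM change differed between durations (interaction), above the 24 h change for MMP1, MMP3 and PLAUR and below it for TIMP2 and TIMP3, against 34.1% of all genes. The place of MMP1 among the 5 was built in, since only G-1 1 µM 72 h brought it past the filter on dim probes. That split of 3 and 2 became 3 and 1 with the 50th percentile, without TIMP3, and 4 and 2 with quantile normalization, with PLAU. For G-1 IC50 none of the 9 genes passed this test, where 0.014% of all genes did, and none had an unadjusted limma p under 0.05.

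Between the doses at 24 h, TIMP1 and PLAUR, 2 of 9, were higher in G-1 1 µM (26.6% of all genes passed), and groups did not overlap for PLAUR and TIMP3 (27.3%). The call of TIMP1 was lost with normexp background correction (0.20, adjusted p = 0.0652), which called PLAUR and TIMP3 higher and TIMP2 lower, and with scaling to the 50th percentile (0.13, adjusted p = 0.378), which called PLAUR alone. At 72 h 6 of 9 passed against 65.1% of all genes: MMP1, MMP3, PLAU and PLAUR were higher and MMP14 and TIMP2 lower in G-1 1 µM. The same 6 were those whose groups did not overlap, against 56.8%. The place of MMP1 among the 6 was built in by the filter on dim probes. Scaling to the 50th percentile moved the median change of all genes between the doses from 0.05 to −0.12 at 24 h and from 0.05 to −0.11 at 72 h, and relative to these medians PLAUR was higher by 0.63 at 24 h and 1.93 at 72 h, and TIMP2 at 72 h was at −0.69, under either percentile.

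**Figure D3:**
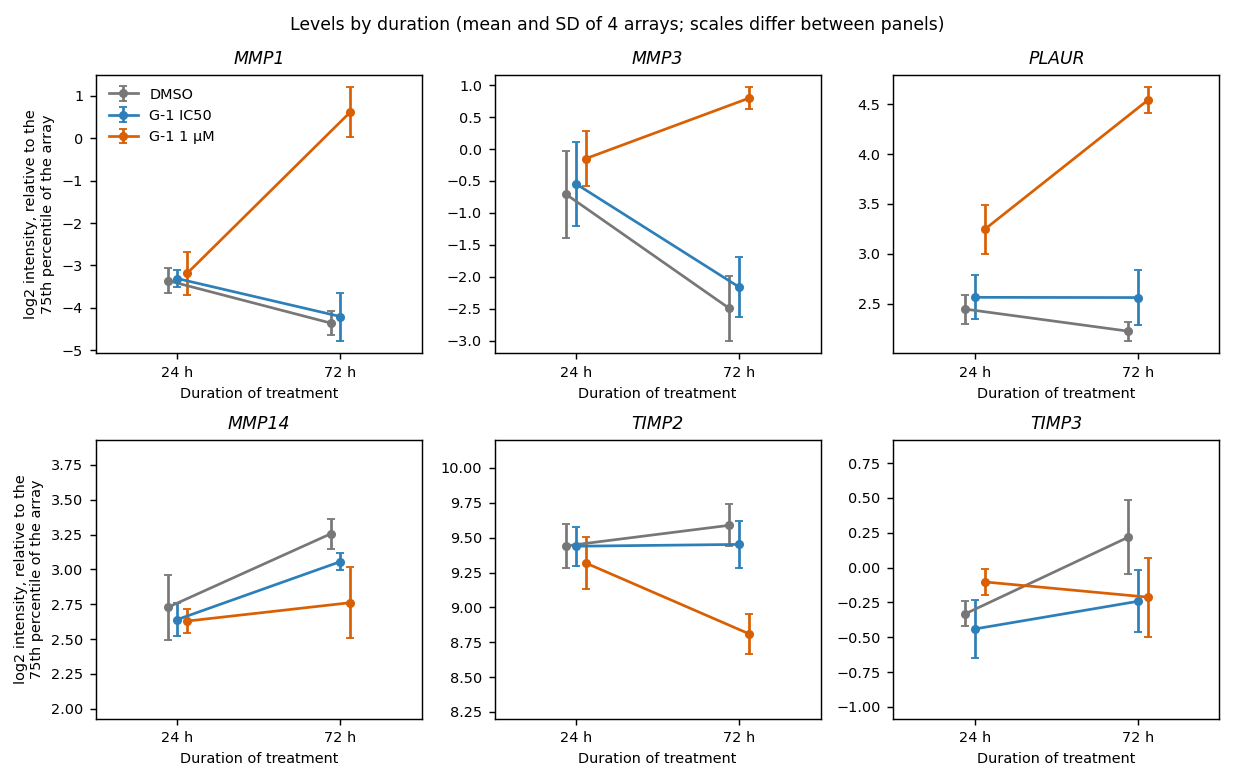
Mean level (log2 intensity minus the array's 75th percentile, with bars for the SD of 4 arrays) at 24 h and 72 h for 6 of the genes under DMSO and the 2 doses. MMP3 goes down with time in DMSO and G-1 IC50 and up in G-1 1 µM, PLAUR rises with time only in G-1 1 µM, and TIMP2 falls only there. MMP1 was above background only in G-1 1 µM 72 h.

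Of 15 other genes of the urokinase and plasminogen system, 10 were tested, of which 4 fell (PLAT, LRP1, MRC2 and ST14) and 6 did not pass at G-1 1 µM 72 h, where 30.9% of all genes were lower and 66.2% passed in either direction. PLAT, the tissue plasminogen activator gene, fell by 0.21 (adjusted p = 0.043) at 24 h and by 0.36 (adjusted p = 0.00036) at 72 h. LRP1 and MRC2, receptors that take up protease complexes and collagen fragments, fell by 0.98 and 0.78 at 72 h (adjusted p = 0.00863 and 6.2e-07). The median change of the 10 genes at 72 h was 0.03, like that of all genes.

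Of 19 other MMP genes 17 were on the array, and 8 of them were above background on no array. Of the 7 tested, 2 rose (MMP7 and MMP9) and 4 fell (MMP15, MMP17, MMP19 and MMP25) after 72 h of G-1 1 µM, with a median change of −0.68. Of all genes 35.3% were higher and 30.9% lower there. MMP9, the gelatinase B, was dim, above background on 17 arrays and on 2 of 4 in DMSO 72 h, and rose by 1.18 ± 0.290 (2.26-fold, adjusted p = 0.00137) at G-1 1 µM 72 h. MMP19 and MMP25 fell by 0.99 (adjusted p = 4.2e-07) and 1.06 (adjusted p = 0.0115), both dim at that point, above background on 1 and 2 of the 4 arrays.

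Of 9 tested genes in a list of 10 other inhibitors and activators of MMPs, 3 rose (FURIN, PCSK7 and TFPI2) and 4 fell (A2M, RECK, PCSK5 and SPOCK1) after 72 h of G-1 1 µM, with a median change of −0.10. These 7 of 9 stand beside 66.2% of all genes that passed. FURIN, PCSK5 and PCSK7 encode proprotein convertases, which activate pro-MMPs of the membrane type. A2M, which encodes the broad protease trap alpha-2-macroglobulin, went from a mean of 6.28 in DMSO 72 h to 3.44 in G-1 1 µM 72 h and fell by 2.85 ± 0.246 (7.19-fold, adjusted p = 4.5e-09), with no such change at 24 h (−0.16, adjusted p = 0.664). In DMSO itself A2M rose by 1.41 from 24 h to 72 h (adjusted p = 0.00354). RECK, a membrane-anchored MMP inhibitor, fell by 0.75 (adjusted p = 1.9e-06) by its brighter probe, while its other probe gave 0.37 (adjusted p = 0.0583). TFPI2, a serine protease inhibitor, was above background only in G-1 1 µM 72 h, where it was at least 3.36-fold above DMSO. It passed the filter on dim probes only through that group, so a difference was built into its being tested.

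Of 24 ADAM and ADAMTS protease genes 13 were tested, and 7 rose and 5 fell (ADAM12, ADAM15, ADAM33, ADAMTS7 and ADAMTS10) after 72 h of G-1 1 µM, with a median change of 0.22, where 35.3% of all genes were higher and 30.9% lower. By its brighter probe ADAMTS1 was at least 8.62-fold above DMSO, where it was not above background (adjusted p = 4.4e-08). Its other probe, also below background in DMSO, passed the filter on dim probes only through G-1 1 µM 72 h. A difference was thus built into the testing of that probe, and its log2 change of 2.47 is a fitted value and no bound. ADAMTS6 was at least 6.02-fold above DMSO by its brighter probe, but it too passed the filter on dim probes only through G-1 1 µM 72 h. ADAMTS9 rose by 1.02 ± 0.172 at 24 h (adjusted p = 0.00029) and by 1.55 ± 0.172 at 72 h (adjusted p = 1.6e-07). ADAMTS1 and ADAMTS9 encode secreted proteases that cut proteoglycans.

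All 14 genes listed for AP-1 and ETS factors, which are known to act on MMP and urokinase promoters, were tested. At G-1 1 µM 24 h 9 rose and 1, FOSL2, fell, and at 72 h 10 rose and 2 fell, with median changes of 0.53 and 0.88 against 0.04 and 0.03 over all genes. Of all genes 20.0% were higher at 24 h and 35.3% at 72 h. All 5 lists were written with earlier results of these data known, so their counts and medians beside those of all genes are a description and not independent evidence. FOSL1, a partner of JUN in AP-1, rose by 1.32 ± 0.180 (adjusted p = 4.5e-05) at 24 h and by 2.01 ± 0.180 (adjusted p = 7.3e-09) at 72 h. The ETS factor genes ETV4 and ETV1 rose by 1.91 (adjusted p = 4.5e-08) and 1.80 (adjusted p = 0.00011) at 72 h. JUN and FOSL2 were the genes that fell at 72 h. In these lists only PLAT, MMP9 and the genes given with a fold or p were named by rule, and the others in a count of 5 or fewer were named after their values were seen. At G-1 IC50 0 genes passed in any of the 5 lists at either duration, with 4 of 53 tested genes under an unadjusted limma p of 0.05 at 24 h and 14 of 53 at 72 h.

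**Figure D4:**
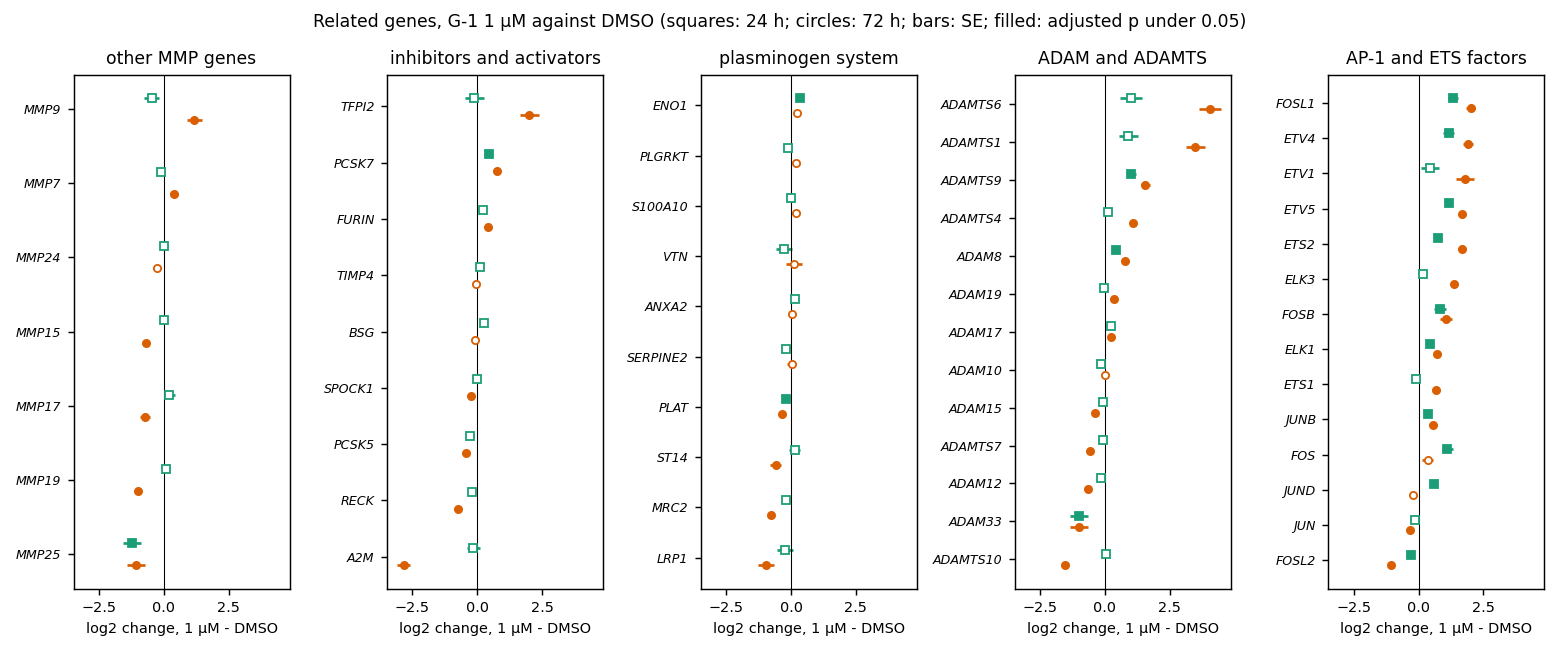
Log2 change of G-1 1 µM against DMSO for the tested genes of the 5 related lists, with squares for 24 h, circles for 72 h, SE bars, and filled symbols where adjusted p was under 0.05. Most AP-1 and ETS genes lie to the right at 72 h and A2M (−2.85) to the left. The values of TFPI2, ADAMTS6 and ADAMTS1 at 72 h rest on DMSO arrays below background and are no bounds.

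PLAUR had the widest range of group means among the 7 genes above background on all 24 arrays, 2.32 log2. Its groups rank from DMSO 72 h through DMSO 24 h, G-1 IC50 at 72 h and then 24 h to G-1 1 µM, first 24 h and last 72 h, and only the last 2 steps are free of overlap. The genes whose levels followed it most closely over the 24 arrays, among 12695 genes above background on all of them, were CXCL2 (Pearson r = 0.986), RDUR (0.985), CTSC (0.982), PVT1 (0.980) and SLCO4A1 (0.980). The 24 points share groups and slides, so these values describe a common pattern over the groups.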

How the data were processed

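Total RNA of 24 U251 cultures was labelled with Cy3 and read on one-colour Agilent arrays. The authors deposited 1 scanner file per array, whose processed intensities had been background-subtracted and detrended by Agilent Feature Extraction (version 12.1.1.1 per the file headers, 10.7.3.1 per the labels) and not scaled between arrays. The authors also deposited a log2 table (made in GeneSpring GX per the methods), which matched log2 intensity minus each array's 75th percentile, centred on each probe's median, to a median absolute difference of 0.00142 over 58118 probes, and served as an alternative.

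Here, spots flagged as outliers were dropped, spots of 1 probe were averaged, and log2 intensities were set to each array's 75th percentile. Probes that were well above background throughout any 1 group were tested, which left 22970 probes and 14235 gene symbols, named through the RefSeq accession of the probe. All 24 arrays entered 1 limma fit (lmFit and eBayes, limma 3.58.1, R 4.3.3) with 9 comparisons, Benjamini-Hochberg adjusted over all tested probes. A gene is represented by its brightest tested probe, and called at adjusted p under 0.05. Exact permutation tests (two-sided) over arrays were run on single probes. With 4 arrays a group their smallest p is 0.0286, and the number of arrays limits the precision. Where a probe was not above background on any array of a group, only a lower bound of the fold is given. Python 3.11.15 and pandas 2.3.3 wrote the summaries, and the fits were tested on simulated data.

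The members and lists were chosen with earlier results of these data known. The 10 genes are named in every comparison, and of each list at most 3 genes, those with the largest absolute log2 change at G-1 1 µM 72 h among those that passed, plus PLAT and MMP9. One gene of the lists is not reported here and was left out of their counts. Alternatives were the 50th percentile, quantile normalization, background correction by normexp (offset 50), the deposited log2 table, no filter or a stricter one, a fit of the compared arrays alone, an intensity trend, replicate number or slide as a block, the methods' t-test, |FC| above 2, any probe of a gene, and leaving out each array. The labels call the cultures independent biological replicates. Sequences are from RefSeq (GRCh38.p14). Probe sequences and proteins were not analysed here.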

Additional observations from a re-analysis of the deposited data

Results flagged for a closer look

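TIMP3 in replicate 2 of G-1 1 µM 72 h, at 0.21, stood apart from the other 3 arrays of its group by more than Dixon's 95% limit. Of 66 groups of 4 arrays examined it was the 1 that did, and chance marks about 1 in 20. Without that array the TIMP3 change from DMSO 72 h was −0.57 in place of −0.43.

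For 5 genes the G-1 1 µM change from DMSO differed between 72 h and 24 h by the limma interaction test (4 arrays in each of the 4 groups). The difference was 4.80 for MMP1, a fitted value that is no bound since MMP1 was above background in 1 group only, 2.73 for MMP3, 1.52 for PLAUR, −0.66 for TIMP2 and −0.66 for TIMP3. Among these 5, all 4 arrays of G-1 1 µM 72 h lay on 1 side of the 24 h arrays for MMP1, MMP3, PLAUR and TIMP2, with MMP1 brought in by the filter on dim probes. The same held in DMSO for MMP3, TIMP3 and MMP1, the last below background there, and in G-1 IC50 for MMP3. Outside these 5 it held for MMP14 in DMSO and G-1 IC50. In DMSO 12.9% of all genes did not overlap over time, and no such share was taken within the doses, so the lists are a description only. From 24 h to 72 h MMP3 rose by 0.95 in G-1 1 µM and fell by 1.78 in DMSO.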

How the results depend on the processing

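No called value changed direction under any alternative run. The count of genes called moved by over 1.5 times as follows. Scaling to the 50th percentile gave 0 in place of 1 for G-1 IC50 against DMSO at 72 h, 1 in place of 2 at 24 h for G-1 1 µM against DMSO or G-1 IC50, and 1 in place of 3 for DMSO 72 h against 24 h. Normexp gave 4 in place of 2 for the 24 h comparison of G-1 1 µM with DMSO. No filter on dim probes gave 1 in place of 3 for DMSO over time. Fits of the compared arrays alone gave 0, 1, 1 and 0 in place of 1, 2, 2 and 3 in these 4 comparisons. The methods' t-test with |FC| above 2, unadjusted or after Benjamini-Hochberg, called 0 for G-1 IC50 72 h and for both 24 h comparisons of G-1 1 µM, and 3 for both at 72 h, and after Benjamini-Hochberg 0 for DMSO over time. Adding |FC| above 2 to limma's adjusted p gave 0, 0 and 0 for the first 3 of these, 3 and 3 at 72 h, 1 for DMSO over time and 3 in place of 5 for the interaction of G-1 1 µM with time. The causes were not tested.

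Leaving out each array in turn kept the counts at 0 (G-1 IC50 24 h), 1 (G-1 IC50 72 h), 1 to 2 (G-1 1 µM 24 h against DMSO, and against G-1 IC50), 6 to 7 (G-1 1 µM 72 h), 5 to 6 (G-1 1 µM against G-1 IC50, 72 h), 1 to 4 (DMSO over time), 0 (interaction of G-1 IC50) and 5 to 7 (interaction of G-1 1 µM). Single values of called genes kept their call in 597 of 624 fits without 1 array and in 278 of 301 other settings. Values not called became called in 13 of 1320 and 25 of 653.

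Replicate numbers were not taken to pair the samples, since not every pair was above 0.1: deviations of same-numbered arrays of 1 duration correlated at −0.113 to 0.485 (median 0.195, 17 of 24 pairs above 0.1) and those of different-numbered arrays at a median of −0.045 (15 of 72). That 12 of 24 arrays correlated best with their own number is a hint from the data, not the design. With the number as a block, or the number within a duration as a block, 2 genes in place of 1 were called at G-1 IC50 72 h (TIMP3 added). For the interaction of G-1 1 µM both blocks added MMP2 (0.75) and MMP14 (−0.40), and the second also added TIMP1 (−0.29), which gave 8 in place of 5. The share of all genes called with these blocks was not taken. Either block also called TIMP3 (0.34, adjusted p = 0.0247) at 24 h and MMP2 (0.39, adjusted p = 0.00567) at 72 h between the doses. One block alone called MMP3 at G-1 1 µM 24 h (0.56, adjusted p = 0.0477, within duration) and MMP1 in DMSO over time (adjusted p = 0.0186), below background at both times. Slide as a block could be fitted only for G-1 IC50 against DMSO, DMSO over time and the interactions, where it called MMP14 as well for G-1 1 µM (−0.44, adjusted p = 0.0237). Signal near background limits MMP1, MMP10 and MMP9.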
